A study of Mus musculus with 6 samples.

Results

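Genes for inhibitors of cyclin-dependent kinases (CDKs) were examined in neural stem cells (NSCs) that lack the microRNA miR-151 and in their controls. The members were listed by symbol and not by a cutoff on measured values, but earlier results of these data were known. They comprise 8 genes of the 32493 in the count table: the CIP/KIP genes *Cdkn1a*, *Cdkn1b* and *Cdkn1c*, the INK4 genes *Cdkn2a*, *Cdkn2b*, *Cdkn2c* and *Cdkn2d*, and the phosphatase gene *Cdkn3*. All 8 matched a single Ensembl gene ID and all 8 passed the filter on low counts, as did 16710 genes in all. NSCs were taken from E14.5 mouse embryos and cultured in serum-free medium before RNA was isolated. The cko cultures carried floxed miR-151 alleles together with Emx1-IRES-Cre, which drives Cre recombinase in the dorsal telencephalon, whereas the ctrl cultures carried the floxed alleles without Cre and are labelled wild type. RNA-seq counts were deposited for 3 ctrl and 3 cko libraries, but the ctrl 2 column equals the rounded-up mean of ctrl 1 and ctrl 3 in 32493 of 32493 genes. It was therefore counted in no n, and 3 cko libraries (1, 2 and 3) were compared with 2 ctrl libraries (1 and 3). Nothing in the labels ties a library to an embryo or litter, so p-values measure the spread between these libraries, which may be technical in part.

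CDKs are switched on by cyclins and drive cells from G1 into S phase and on to mitosis. INK4 proteins bind CDK4 and CDK6 and keep them from their D-type cyclins, while CIP/KIP proteins bind complexes of CDKs with cyclins, mainly those of CDK2, and can also help to assemble complexes of CDK4 with cyclin D. In the developing cortex, CDK inhibitors are known for their part in the exit of progenitors from the cell cycle. *Cdkn3* differs from the others, since its product removes an activating phosphate from CDKs and the gene is transcribed mainly in cycling cells.

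The 5 libraries held 17883796 to 23335736 counts, at which 3 counts correspond to 0.129 to 0.168 CPM (counts scaled to a common total). Only counting error enters this limit. Between ctrl 1 and ctrl 3, 752 of 14347 genes with a mean of at least 1 CPM differed by over 2-fold, against 143 to 266 between pairs of cko libraries. The NSC genes *Sox2* and *Nes* were at 556 CPM or more and at 471 CPM or more in each library. *Nes* was not steady, at 471 and 537 CPM in ctrl and at 874 to 1068 CPM in cko. The microglial genes *Cx3cr1* and *Tmem119* and the endothelial gene *Cdh5* had no counts. Other markers of these cell types were detected, such as microglial *P2ry12* with 1 to 10 counts and endothelial *Kdr* with 77 to 140 counts in a library. *Xist* lay at 2557 and 2889 CPM in ctrl and at 787 to 894 CPM in cko, and all 4 Y-linked genes examined were called higher in cko. No CDK inhibitor gene is on a sex chromosome. Since these sex-linked genes differed between the genotypes, the sex makeup of the cultures and the genotype cannot be told apart here. The targeted miRNA was not analysed here, so the genotype labels were not checked against it.

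The members lie on 6 autosomes of GRCm38, and the annotation (GENCODE M21) calls each protein-coding. *Cdkn2a* (ENSMUSG00000044303, chromosome 4, 89274471 to 89294653, minus strand) and *Cdkn2b* (ENSMUSG00000073802, chromosome 4, 89306299 to 89311039, minus strand) are neighbours 11.6 kb apart. *Cdkn2c* (ENSMUSG00000028551) lies on the same strand of chromosome 4 from 109660876 to 109667189. *Cdkn2d* (ENSMUSG00000096472) occupies 21288410 to 21291407 of chromosome 9 (minus strand), and *Cdkn3* (ENSMUSG00000037628) 46760541 to 46771669 on the plus strand of chromosome 14. *Cdkn1a* (ENSMUSG00000023067) is annotated on the plus strand of chromosome 17 from 29090976 to 29100727, *Cdkn1b* (ENSMUSG00000003031) on the plus strand of chromosome 6 from 134920401 to 134925513, and *Cdkn1c* (ENSMUSG00000037664) on chromosome 7 (minus strand) from 143458339 to 143461050. Since the use of strand in counting is not stated, the 273 exonic bases that *Cdkn1a* shares with *AC167363.2* on the opposite strand and the 625 that *Cdkn1c* shares with the antisense gene *Gm44732* make these counts less certain. *AC167363.2* had 26 to 119 counts in a library and *Gm44732* at most 1. The other 6 members overlap no annotated gene.

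The promoters of *Cdkn2c*, *Cdkn2d*, *Cdkn3* and *Cdkn2b* are shown because these genes carry the contrast between members that were higher and lower in cko NSCs, although *Cdkn2d* did not pass the test. Each runs from 250 bases before to 50 bases after an annotated start (RefSeq, GRCm38.p6), 5′ to 3′ on the strand of the gene, and capitals mark the searched words on either strand. For *Cdkn2c* the upstream one of its annotated starts is shown (chr4:109666707-109667006, minus strand), followed by *Cdkn2d* (chr9:21291160-21291459, minus strand), *Cdkn3* (chr14:46760291-46760590, plus strand) and *Cdkn2b* (chr4:89310983-89311282, minus strand).
Cdkn2c: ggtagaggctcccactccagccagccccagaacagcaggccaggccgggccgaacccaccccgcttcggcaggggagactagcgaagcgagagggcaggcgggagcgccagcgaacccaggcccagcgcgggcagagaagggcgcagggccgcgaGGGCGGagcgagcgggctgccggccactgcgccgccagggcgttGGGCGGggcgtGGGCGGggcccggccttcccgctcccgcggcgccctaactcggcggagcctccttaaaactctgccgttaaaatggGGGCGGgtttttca
Cdkn2d: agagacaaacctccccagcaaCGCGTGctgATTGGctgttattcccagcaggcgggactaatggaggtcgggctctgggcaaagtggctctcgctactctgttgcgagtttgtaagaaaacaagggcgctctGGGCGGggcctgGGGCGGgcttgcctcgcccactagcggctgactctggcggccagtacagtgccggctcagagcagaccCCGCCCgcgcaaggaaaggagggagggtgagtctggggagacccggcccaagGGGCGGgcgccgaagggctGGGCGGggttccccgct
Cdkn3: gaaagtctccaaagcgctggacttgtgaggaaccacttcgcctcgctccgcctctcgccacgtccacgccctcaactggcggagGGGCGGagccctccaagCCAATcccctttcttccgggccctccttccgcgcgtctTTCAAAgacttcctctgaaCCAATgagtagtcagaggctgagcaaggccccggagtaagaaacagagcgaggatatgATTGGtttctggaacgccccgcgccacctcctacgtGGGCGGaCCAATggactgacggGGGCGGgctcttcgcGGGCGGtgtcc
Cdkn2b: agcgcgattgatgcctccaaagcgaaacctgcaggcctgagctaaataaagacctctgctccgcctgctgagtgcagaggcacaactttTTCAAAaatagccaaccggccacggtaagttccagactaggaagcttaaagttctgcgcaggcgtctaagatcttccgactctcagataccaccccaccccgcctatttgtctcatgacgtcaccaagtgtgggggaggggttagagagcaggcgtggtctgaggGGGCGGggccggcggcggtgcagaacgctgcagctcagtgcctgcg

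RefSeq windows were found for 7 of the 8 members, 10 windows in all. *Cdkn1c* was not among them. The searched words were TTTCCCGC, TTTGGCGC, TTTCGCGC and TTTGCCGC (bound by E2F factors). The CHR element of genes transcribed in G2 and M phase was searched as TTTGAA. The CCAAT box was searched under these letters, and the site of SP1 as GGGCGG. For HES factors the word CACGAG was searched, and its variant with CACGCG. An E2F word stood in 1 of the 10 windows, the upstream start of *Cdkn2a*, against 2.26% of 32851 windows over all genes. The CHR word stood in 2 of 10, those of *Cdkn3* and *Cdkn2b*, against 17.9%, so it was found both in a gene that was higher and in a gene that was lower. The CCAAT box was present in 5 of 10 windows against 37.4%, the SP1 word in 8 of 10 against 35.7%, and a HES word in 3 of 10 against 14.7%. The *Cdkn3* window holds 4 CCAAT boxes, the first of which begins at position -149 from the start, and a CHR word that begins at -111. In the downstream window of *Cdkn2a*, the CCAAT box and the SP1 word overlap. The GC content of the 10 windows ranged from 44.0% to 77.0%, with a median of 52.7% over all windows. Most of the 10 were above that median. They held 2 to 45 CG pairs, against a median of 7 over all windows. The windows over all genes were not matched for GC content, so the shares of GC-rich words are not like for like. These are matches of letters and do not show binding.

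The CDK inhibitors did not change in a single direction. With p-values adjusted over all tested genes (quasi-likelihood test of edgeR, threshold 0.05), *Cdkn2c* and *Cdkn3* rose in cko NSCs and *Cdkn1c* and *Cdkn2b* fell, and the other 4 members did not pass. The 2 of 8 that rose stand against 7.86% of all tested genes called higher, and the 2 that fell against 8.57% called lower. The INK4 family was split, with *Cdkn2c* up 1.88-fold and *Cdkn2b* down 2.51-fold. The median log2FC (log2 fold change, cko over ctrl) over the 8 members was 0.10, beside -0.0026 over all tested genes. At the threshold the study set (log2FC above 0.9 or below -0.9 with p under 0.01 before adjustment) *Cdkn2c* and *Cdkn3* were called higher (2.39% of all tested genes) and *Cdkn2b* lower (4.17%). *Cdkn1c*, at a log2FC of -0.87, was just short of it. The genotypes did not overlap for 6 members, with 4 higher in every cko library than in either ctrl library, against 25.4% of all tested genes, and 2 lower, against 24.3%.

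**Figure D1:**
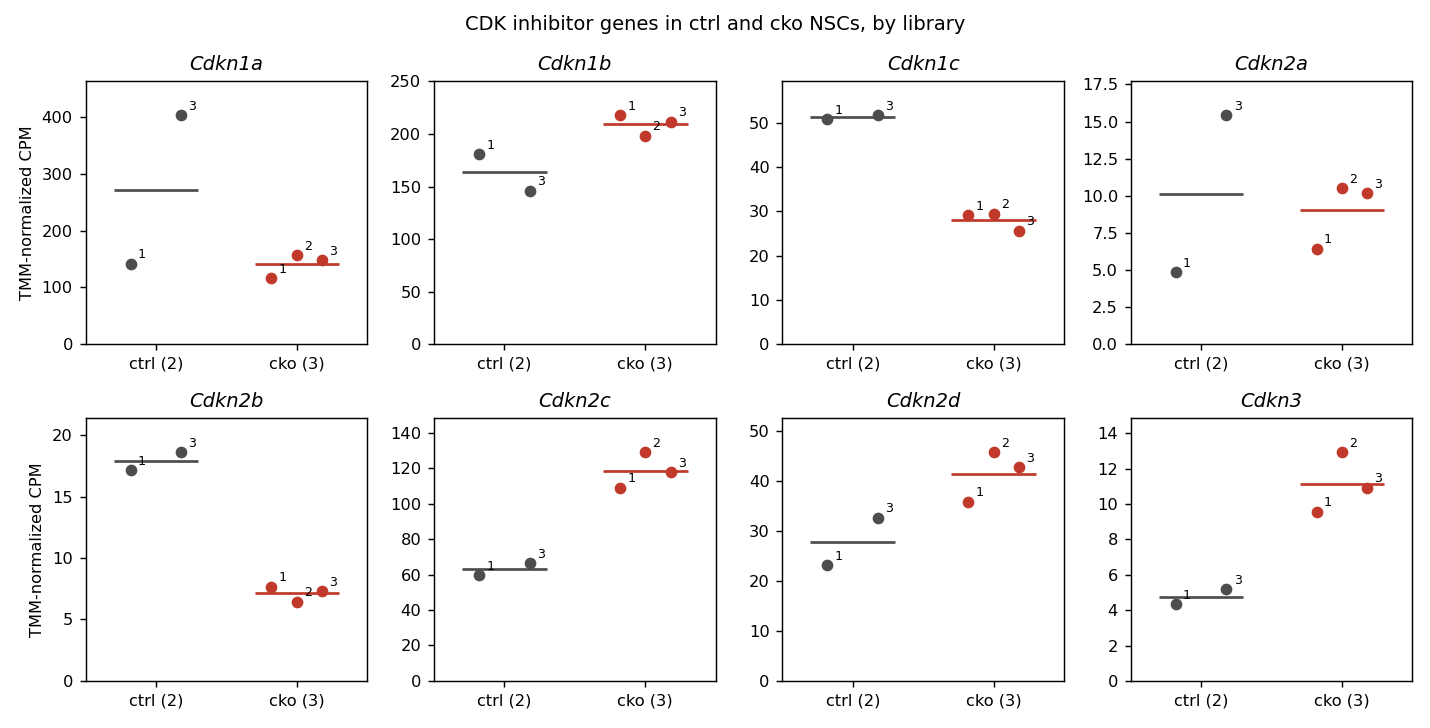
TMM-normalized CPM (vertical axes, each from 0) of the 8 CDK inhibitor genes in ctrl (2 libraries, grey) and cko (3 libraries, red) NSCs. Points are libraries with their replicate numbers and horizontal bars are group means. *Cdkn1c* and *Cdkn2b* lie lower in every cko library, *Cdkn2c* and *Cdkn3* higher, and ctrl 3 stands far above ctrl 1 for *Cdkn1a* and *Cdkn2a*.

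Among the INK4 genes, *Cdkn2c*, which encodes p18INK4c, was measured at 59.7 and 66.5 normalized CPM in ctrl libraries 1 and 3 and at 109, 129 and 118 normalized CPM in cko libraries 1, 2 and 3. The lowest cko library was well above the higher ctrl library. It rose from a ctrl mean of 63.1 ± 4.86 (SD, n = 2) to a cko mean of 119 ± 10.1 (SD, n = 3), with a log2FC of 0.91 and a 95% interval of 0.68 to 1.14 (adjusted p = 0.00241). *Cdkn2b* encodes p15INK4b, an inhibitor of CDK4 and CDK6 known to be induced by TGF-beta. It had 17.1 and 18.6 normalized CPM in ctrl libraries and 7.67, 6.43 and 7.31 in cko libraries. Every cko library was under the lower ctrl library. It fell from a ctrl mean of 17.9 ± 1.06 (SD, n = 2) to a cko mean of 7.13 ± 0.636 (SD, n = 3), with a log2FC of -1.33 and a 95% interval of -1.66 to -0.99 (adjusted p = 0.00229). Within a library, *Cdkn2c* exceeded *Cdkn2b* per length of exon by 1.80-fold and 1.85-fold in ctrl, and by 7.36-fold, 10.4-fold and 8.33-fold in cko.

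*Cdkn2d*, which encodes p19INK4d, was at 23.2 and 32.7 normalized CPM in ctrl libraries and at 35.9, 45.8 and 42.8 in cko libraries. The genotypes did not overlap, but the distance from ctrl 3 to cko 1 was small beside the distance between the ctrl libraries. The log2FC was 0.58 with a 95% interval of 0.18 to 0.97, and the adjusted p was 0.0562. Against ctrl 1 alone the log2FC was 0.85 (adjusted p = 0.00442) and against ctrl 3 alone 0.34 (adjusted p = 0.131). *Cdkn2a* yields both p16INK4a and ARF from separate first exons and shared later exons, which a count per gene cannot tell apart. It had 4.85 and 15.4 normalized CPM in ctrl libraries and 6.43, 10.5 and 10.2 in cko libraries. All 3 cko libraries lay between the ctrl libraries. With 111 and 289 counts in ctrl 1 and ctrl 3, exact Poisson 95% intervals of 3.99 to 5.84 and 13.7 to 17.3 CPM put the gap between the ctrl libraries beyond counting error. The log2FC was -0.15 with a 95% interval of -1.19 to 0.89 (adjusted p = 0.853), so a change in either direction is within the interval. Against ctrl 1 alone it was 0.91 (adjusted p = 0.0570) and against ctrl 3 alone -0.77 (adjusted p = 0.0562).

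Among the CIP/KIP genes, *Cdkn1c*, which encodes p57KIP2 and is imprinted, was measured at 50.9 and 51.7 normalized CPM in ctrl libraries and at 29.1, 29.5 and 25.6 in cko libraries. The ctrl libraries were closer to each other than for any other member, with a ratio of 1.02, and every cko library was far below them. It fell from a ctrl mean of 51.3 ± 0.576 (SD, n = 2) to a cko mean of 28.1 ± 2.10 (SD, n = 3), with a log2FC of -0.87 and a 95% interval of -1.09 to -0.65 (adjusted p = 0.00229). *Cdkn1b* encodes p27KIP1, which is regulated to a large part by degradation of the protein. It had 181 and 146 normalized CPM in ctrl libraries and 218, 198 and 212 in cko libraries. All cko libraries were higher, and the log2FC of 0.36 (95% interval 0.11 to 0.60) had an adjusted p of 0.0583. Without ctrl 1 it was 0.51 (adjusted p = 0.00386), and without ctrl 3 it was 0.21 (adjusted p = 0.107).

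*Cdkn1a* encodes p21CIP1, a target of p53. It had 142 and 403 normalized CPM in ctrl libraries 1 and 3, and 117, 157 and 149 in cko libraries 1, 2 and 3. Ctrl 3 exceeded ctrl 1 by 2.84-fold, and ctrl 1 lay within the range of the cko libraries. The log2FC of -0.95 (95% interval -1.81 to -0.09) had an adjusted p of 0.121 and rested on ctrl 3. Without ctrl 3 it was -0.01 (adjusted p = 0.976), and without ctrl 1 it was -1.53 (adjusted p = 0.000188). *Trp53* itself was at 79.8 and 83.4 normalized CPM in ctrl and 76.9 to 89.5 in cko (adjusted p = 0.707). *Mdm2*, another p53 target, was at 71.8 and 90.5 in ctrl and 67.4 to 71.2 in cko (adjusted p = 0.191).

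*Cdkn3* had the largest increase of the 8, from 4.32 and 5.18 normalized CPM in ctrl libraries to 9.57, 12.9 and 10.9 in cko libraries. It had 97 to 302 counts in a library, the fewest of the members in both ctrl libraries but not in the cko libraries, where *Cdkn2a* and *Cdkn2b* had fewer. The exact Poisson 95% intervals of the ctrl libraries reached up to 5.26 and 6.31 CPM, and that of the lowest cko library began at 8.19 CPM, so the separation was beyond counting error. The log2FC was 1.24 with a 95% interval of 0.77 to 1.70 (adjusted p = 0.00800). In the same libraries *Mki67*, a marker of cycling cells, had a log2FC of 1.30 (adjusted p = 0.00192).

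**Figure D2:**
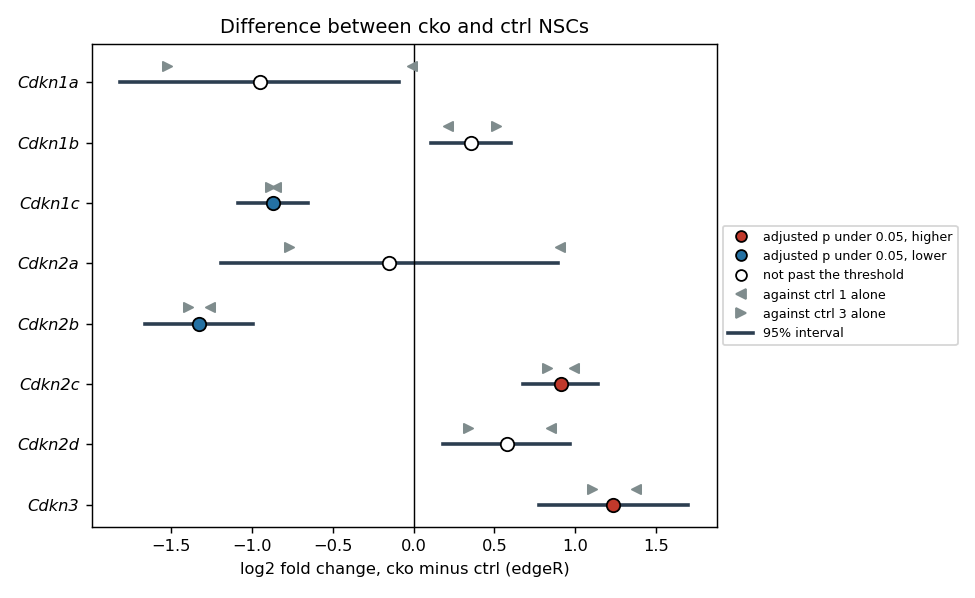
log2FC (cko minus ctrl, horizontal axis) of each CDK inhibitor gene with its 95% interval from edgeR, filled where the adjusted p was under 0.05. Grey triangles give the log2FC against ctrl 1 alone (pointing left) and ctrl 3 alone (pointing right). For *Cdkn2a* the triangles lie on opposite sides of 0 and for *Cdkn1a* they span -1.53 to -0.01. For the 4 called genes, and also for *Cdkn1b* and *Cdkn2d*, which were not called, they lie within the interval. The intervals come from the same libraries.

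Levels were compared between genes per kb of annotated exon. This length joins the exons of all annotated transcripts of a gene. The order of genes and the shares below therefore depend on which transcripts were expressed, which was not measured. In ctrl NSCs the order from high to low was *Cdkn1a*, *Cdkn1b*, *Cdkn1c*, *Cdkn2c*, *Cdkn2d*, *Cdkn2b*, *Cdkn2a* and *Cdkn3*, and it was the same in both ctrl libraries. *Cdkn1a* and *Cdkn1b* were level in ctrl 1, at 39.9 and 39.7 CPM per kb, but not in ctrl 3, at 114 and 32.1 CPM per kb. *Cdkn1c* (mean 25.2 CPM per kb) and *Cdkn2c* (22.2 and 24.8 CPM per kb) were also close. In cko NSCs, *Cdkn1b* (mean 46.0 CPM per kb), *Cdkn2c* (44.1) and *Cdkn1a* (39.6) overlapped at the top, followed by *Cdkn2d* (26.4) and *Cdkn1c* (13.8). *Cdkn2a*, *Cdkn2b* and *Cdkn3* were lowest, and *Cdkn2b* overlapped with each of the other two. *Cdkn2c* moved from the fourth place in both ctrl libraries to the first or second in the cko libraries, and *Cdkn1c* from the third to the fifth.

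The sum over the 8 genes was 160 and 245 CPM per kb in ctrl and 173, 198 and 190 CPM per kb in cko, so the cko libraries lay between the ctrl libraries. The INK4 share of this sum was higher in all cko libraries than in both ctrl libraries. The INK4 genes made up 33.4% and 29.4% of the sum in ctrl and 42.9%, 45.8% and 44.6% in cko. *Cdkn2c* alone contributed 13.9% and 10.1% in ctrl and up to 24.2% in cko, with each cko library above both ctrl libraries. Without *Cdkn2c*, the other INK4 genes together made up 19.5% and 19.3% in ctrl and 19.5% to 21.6% in cko. CIP/KIP genes made up 65.5% and 69.7% of the sum in ctrl and 51.5% to 54.8% in cko. The part of *Cdkn1a* in this was uneven, with 24.98% in ctrl 1, 46.3% in ctrl 3 and 18.9% to 22.2% in cko. Without *Cdkn1a*, the other CIP/KIP genes made up 40.5% and 23.4% in ctrl and 35.8%, 29.3% and 31.0% in cko, and the genotypes overlapped. Every share keeps *Cdkn1a* in the sum, so its high level in ctrl 3 lowers the other shares there. The separation of the INK4 shares therefore depends on *Cdkn1a*. In CPM per kb, the INK4 genes summed to 53.4 and 72.1 in ctrl and to 74.4, 90.8 and 84.9 in cko, so ctrl 3 was close to cko 1. These sums and shares are descriptions and were not tested.

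**Figure D3:**
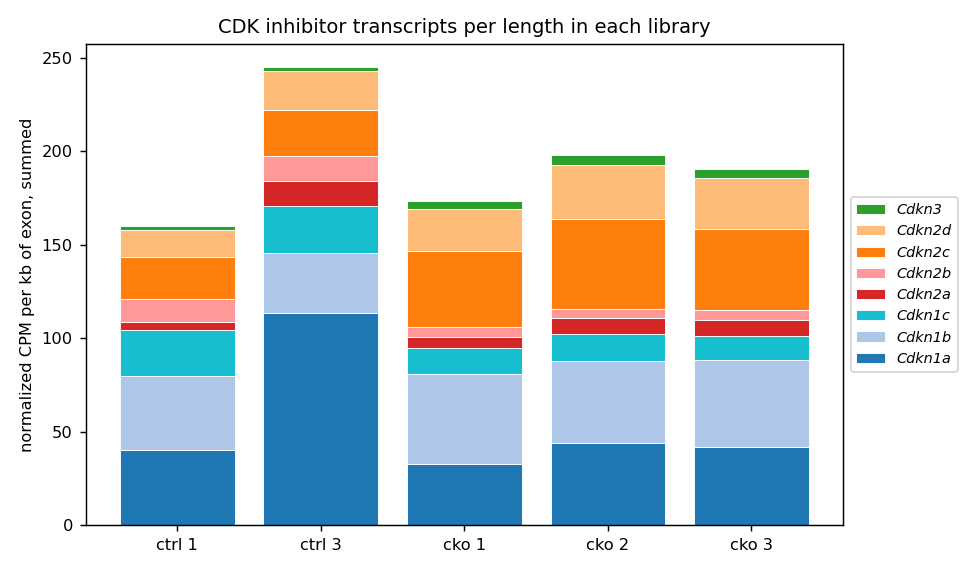
Normalized CPM per kb of exon (vertical axis, from 0) stacked over the 8 CDK inhibitor genes in each of the 5 libraries. The INK4 share (red and orange tones) of the stack with *Cdkn1a* is 29.4% and 33.4% in ctrl and 42.9% to 45.8% in cko. The height of ctrl 3 comes from 114 CPM per kb of *Cdkn1a*.

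The nearest protein-coding gene on each side of a member was read out as well. Of the 10 that were tested and are not members themselves, *Srsf3* rose and *Mtap* and *Bmp4* fell. Over all tested genes, 7.86% were called higher and 8.57% lower. Beside *Cdkn2a* and *Cdkn2b*, the methylthioadenosine phosphorylase gene *Mtap* fell from 56.1 and 55.1 to 44.0, 46.0 and 46.4 normalized CPM, with a log2FC of -0.29 (adjusted p = 0.0403), and *Dmrta1* on the other side had 0.33 (adjusted p = 0.388). *Cdkn2a*, 11.6 kb from *Cdkn2b*, overlapped between genotypes. Next to *Cdkn2c*, *Faf1* had a log2FC of 0.07 (adjusted p = 0.698). *Kri1*, 0.441 kb from *Cdkn2d*, had -0.18 (adjusted p = 0.355), and *Cnih1*, 3.90 kb from *Cdkn3*, had -0.17 (adjusted p = 0.326). *Bmp4*, 370 kb from *Cdkn3* on its other side, had 13 counts in each ctrl library and 0 or 1 in the cko libraries (adjusted p = 0.0127). *Srsf3*, 47.6 kb from *Cdkn1a*, rose with a log2FC of 0.45 (adjusted p = 0.00974), and *Gpr19*, next to *Cdkn1b*, had 0.35 (adjusted p = 0.0564), close to the value of *Cdkn1b*. *Apold1*, on the other side of *Cdkn1b*, had 0.49 (adjusted p = 0.224). *Rab44*, on the other side of *Cdkn1a*, had 2.05 (adjusted p = 0.0698) with 1 to 17 counts in a library.

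*Cdkn1c* lies in an imprinted domain under the control of the noncoding RNA *Kcnq1ot1*. *Kcnq1ot1* was measured at 37.7 and 31.1 normalized CPM in ctrl and at 35.5 to 36.5 in cko, with a log2FC of 0.06 (adjusted p = 0.726). *Nap1l4*, at the edge of the domain, had 0.01 (adjusted p = 0.940). The imprinted genes *Phlda2*, *Slc22a18* and *Kcnq1* had at most 5 counts in any library and were not tested. The 95% intervals of the log2FC were -0.18 to 0.31 for *Kcnq1ot1* and -0.17 to 0.19 for *Nap1l4*, both of which lie above the interval of *Cdkn1c*.

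The partners of the inhibitors were read out as lists. Of 21 CDKs, cyclins and regulators of their phosphorylation, 11 were called higher in cko and 0 lower by edgeR, with a median log2FC of 0.65. None was lower at an unadjusted p under 0.05 (0 of 21), and DESeq2 also called 11 higher and 0 lower. The INK4 targets *Cdk4* and *Cdk6* both rose. *Cdk6* was at 32.6 and 27.4 normalized CPM in ctrl and 70.3, 73.6 and 81.9 in cko libraries (log2FC 1.33, adjusted p = 0.00109). *Cdk4* was at 281 and 279 in ctrl and 406, 468 and 443 in cko libraries (log2FC 0.65, adjusted p = 0.00435), and neither gene overlapped between genotypes. The D-type cyclins that INK4 proteins compete with did not pass, with log2FC values of -0.12 for *Ccnd1*, -0.38 for *Ccnd2* and -0.08 for *Ccnd3*. Like *Cdkn1a*, *Ccnd1* and *Ccnd2* were higher in ctrl 3 (658 and 882 normalized CPM) than in ctrl 1 (304 and 516) and than in any cko library. The kinases and cyclins bound by CIP/KIP proteins were divided. *Cdk2* was at 0.13 (adjusted p = 0.505), *Ccne1* at 0.18 (adjusted p = 0.703) and *Ccne2* at 0.44 (adjusted p = 0.0952). The A-type cyclins *Ccna2* (1.20, adjusted p = 0.00278) and *Ccna1* (1.97, adjusted p = 0.0208, 8 to 58 counts) rose. So did the mitotic *Cdk1* (1.29, adjusted p = 0.00233) and *Ccnb1* (1.33, adjusted p = 0.00145).

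Of 13 RB and E2F family genes, 5 were called higher and 1 lower, with a median log2FC of 0.21. *E2f8* (1.30, adjusted p = 0.00278) and *E2f7* (1.38, adjusted p = 0.0135), both repressors that are themselves E2F targets, rose, and *E2f5* (-0.41, adjusted p = 0.0241) fell. The call of *E2f5* was lost without cko 1, cko 2 or cko 3 (adjusted p = 0.0597, 0.0903 and 0.112) and with the replicate number as a block (adjusted p = 0.0792), and that of *E2f7* without cko 2 or cko 3 (adjusted p = 0.0641 and 0.0679). *Rb1* was at 123 and 110 normalized CPM in ctrl and 94.4 to 97.5 in cko, with an adjusted p of 0.0501, and *E2f1*, at 6.60 and 15.1 normalized CPM in ctrl and 13.3 to 20.6 in cko, overlapped (log2FC 0.62, adjusted p = 0.251). Without ctrl 3 the log2FC of *E2f1* was 1.34 (adjusted p = 0.00654) and without ctrl 1 it was 0.13 (adjusted p = 0.726). Of 15 genes for the degradation of CDK inhibitors, 4 were called higher and 0 lower by edgeR, with a median of 0.09. At an unadjusted p under 0.05 1 was lower, and DESeq2 called 5 higher and 0 lower. The cofactor *Cks1b*, which helps the ubiquitin ligase SCF-SKP2 to recognise p27KIP1, rose with a log2FC of 0.76 (adjusted p = 0.00472), and *Cdc20* with 1.26 (adjusted p = 0.00239). *Skp2* had 0.31 (adjusted p = 0.174). *Cks1b* and *Cdc20* are also in the G2/M list below, as are *Cdk1*, *Ccnb2* and *Cdc25c* of the kinases and cyclins. *Pcna*, *Dtl*, *Ccne2* and *E2f8* are also in the S-phase list. The lists of partners and the phase lists are therefore not separate observations.

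Of 30 transcriptional regulators known to act on CDK inhibitor genes, 4 were called higher and 2 lower, with a median log2FC of 0.04. Over all tested genes 7.86% were called higher and 8.57% lower, so as a list the regulators were close to the background and the genes below are given as single values. *Smad3*, which carries TGF-beta signals to *Cdkn2b*, fell from 74.1 and 99.0 normalized CPM in ctrl to 26.4, 24.7 and 25.3 in cko libraries (log2FC -1.76, adjusted p = 0.000879). *Hes1* fell as well (-1.04, adjusted p = 0.00588). *Ets1*, which can activate *Cdkn2a*, rose from 60.8 and 49.4 normalized CPM in ctrl to 203, 229 and 227 in cko libraries (adjusted p = 0.000389), and *Hes5* rose by 0.93 (adjusted p = 0.00107). Among Polycomb genes, which silence the *Cdkn2a* and *Cdkn2b* locus, *Ezh2* rose (0.62, adjusted p = 0.00555) and *Bmi1* had 0.16 (adjusted p = 0.234).

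**Figure D4:**
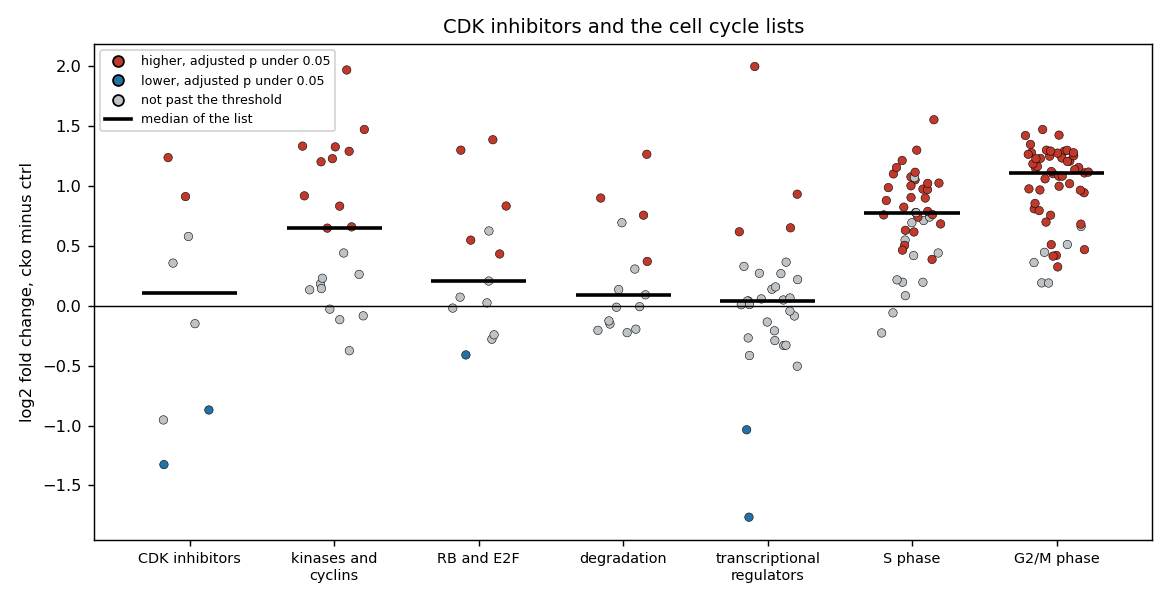
log2FC (cko minus ctrl, vertical axis) of each tested gene in the CDK inhibitor list, 4 lists of genes that act with CDK inhibitors, and the S-phase and G2/M lists. Points are genes, coloured where the adjusted p was under 0.05, and bars are medians. Some genes are in a phase list as well as in another list. The CDK inhibitors spread from -1.33 to 1.24 around a median of 0.10, while the G2/M genes lie around a median of 1.10.

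Genes of the cycling state moved in the same libraries. Of the genes that Seurat uses to score phases, 29 of 43 for S phase and 48 of 54 for G2/M were called higher and 0 lower by edgeR. At an unadjusted p under 0.05, 1 S-phase gene and 0 G2/M genes were lower, and DESeq2 called 0 lower in either list. Their summed levels were 1379 and 1711 normalized CPM in ctrl against 2184 to 2877 in cko for S phase, and 4883 and 5459 against 7972 to 9887 for G2/M. Markers of differentiated glia moved too. Of 8 astrocyte markers, 5 were called lower and 0 higher (0 also at an unadjusted p under 0.05 and by DESeq2), with sums of 3153 and 2093 normalized CPM in ctrl and 873 to 1581 in cko. *Gfap*, which did not pass, was at 1008 and 178 normalized CPM in ctrl 1 and ctrl 3 and at 298, 86.7 and 122 in cko libraries, so the genotypes overlapped. Of 10 oligodendrocyte lineage markers, 6 were called lower, the myelin genes *Mbp* and *Mag* among them, and 2 higher (*Olig1* and *Olig2*), with sums of 3220 and 3840 in ctrl and 3511 to 3762 in cko. Of 8 tested neuronal markers, 1 was called higher and 1 lower, with sums of 1105 and 1230 in ctrl and 1200.4 to 1229 in cko. Summed levels were at most 0.907 normalized CPM for 6 microglial markers, 4.15 to 6.76 for endothelial markers, and 3.76 and 6.72 in ctrl for fibroblast and pericyte markers, whose sums were lower in every cko library (1.62 and 2.06 in cko 1 and cko 2). Of 10 NSC markers, 4 were called higher and 1 lower. *Nes* was among the higher (log2FC 0.98, adjusted p = 0.00287), and *Slc1a3* was the lower (-0.79, adjusted p = 0.00639). *Sox2* and *Pax6* did not pass. In bulk RNA, fewer cells of a type and less RNA per cell cannot be told apart. The part of cell cycle phase, cell type and sex of the cultures in the CDK inhibitor values was not tested.

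Genes with profiles closest to a called member were found by the Euclidean distance of log2 normalized CPM, centred on the mean of the 5 libraries, among genes of similar level. For *Cdkn2c* these were *H2afx* (distance 0.047), *Cacng4* (0.098) and *Dbf4* (0.114), and for *Cdkn3* *Esco2* (0.087), *Fanci* (0.119) and *Spc24* (0.130). *H2afx* encodes a histone of the DNA damage response, *Dbf4* the activator of the replication kinase CDC7, *Esco2* a cohesin acetyltransferase, *Fanci* a Fanconi repair protein and *Spc24* a kinetochore subunit. Those for *Cdkn1c* were *Acad11* (0.102), *Tmem38a* (0.127) and *Amigo1* (0.134), and those for *Cdkn2b* *Ptpre* (0.119), *Vwa1* (0.128) and *Sh3gl3* (0.167). The search ran over 5 libraries and 6151 to 8724 candidate genes for each member, and the distances are descriptions. Functions were not given for *Cacng4* or for the genes closest to *Cdkn1c* and *Cdkn2b*, so no shared theme can be read from them. The members searched were those called by genotype over the same libraries. Their closest profiles therefore share the difference between genotypes, with log2FC values of 0.92, 0.95 and 0.88 for *H2afx*, *Cacng4* and *Dbf4*.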

How the data were processed

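The authors filtered the reads (FastQC, NGSQC), used HISAT2 for alignment against mm10, and deposited a table of whole-number counts per Ensembl gene in 6 columns. The submitters' processing notes name GRCm39 as the build, and the counting tool, annotation and strand setting are not given in the sources used here. The ctrl 2 column, deposited among the counts, holds a rounded mean and was used only in the alternatives with all 6 columns. Gene models were those of GENCODE M21 (GRCm38), in which 31829 of the 32493 IDs were found. The others held 0.223% to 0.342% of the counts of a library.

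The tool was edgeR 4.0.16 under R 4.3.3. Low genes were removed by filterByExpr with genotype as group, and the remaining counts were TMM-normalized (factors 0.990 to 1.01) and tested by the quasi-likelihood test, with Benjamini-Hochberg adjustment over 16710 genes. DESeq2 1.42.0 was an alternative. CPM values are TMM-normalized, errors are SD over libraries, 95% intervals of log2 fold changes come from the edgeR fit, and Poisson intervals cover counting error only. Phase lists came from Seurat 5.3.0 with mouse symbols. Named genes were the 8 members, the 2 called genes of smallest p in each direction in each list, 18 genes fixed by name, the nearest protein-coding genes on each side, and the 3 closest profiles of each called member. Other genes given with values were chosen after their values were seen. The members and lists were chosen with earlier results of these data known. Counts were also simulated with 200 genes changed by a log2 fold change of 1.5. Among 16349 genes tested, edgeR recovered 82.5% of the 200, and 4.62% of its 173 calls were false. In the measured data 1314 genes were called higher and 1432 lower, and the members ranged from -1.33 to 1.24. The rates therefore describe the simulated counts only. They do not carry over to the members, whose changes were all smaller in size than 1.5.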

Additional observations from a re-analysis of the deposited data

How the results depend on the processing

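The calls of *Cdkn2c*, *Cdkn3*, *Cdkn1c* and *Cdkn2b* kept an adjusted p under 0.05 under all 12 alternatives, with log2 fold changes of 0.82 to 1.00, 1.10 to 1.37, -0.92 to -0.82 and -1.40 to -1.26 without each replicate in turn. The other members depended on the setting, and the cause was not tested. With DESeq2, *Cdkn1b* (0.35, adjusted p = 0.0279) and *Cdkn2d* (0.57, 0.0208) were also called, which made 4 higher members. With no filter on low counts, *Cdkn1a* (-0.96, adjusted p = 1.1e-21), *Cdkn1b* (0.35) and *Cdkn2d* (0.57) passed, although ctrl 1 lay within the cko range for *Cdkn1a*. The p-values of the fit without a filter are therefore weak support for any call. There were then 4 higher members and, at the study's threshold, 2 lower. With all 6 columns *Cdkn1b* (0.35) and *Cdkn2d* (0.59) passed, which made 4 higher. Fits with all 6 columns, with or without a block, count a mean of ctrl 1 and ctrl 3 as a replicate. They therefore understate the spread in ctrl, and their calls are no independent support. Leaving out each replicate in turn gave -1.53 to -0.0075 for *Cdkn1a*, 0.21 to 0.51 for *Cdkn1b*, 0.34 to 0.85 for *Cdkn2d* and -0.77 to 0.91 for *Cdkn2a*, which turned direction without ctrl 3 (0.91) and without cko 1 (0.03). At the study's threshold these fits called 1 to 2 members higher and 1 to 2 lower, and the filter of at least 10 counts in every library called 1 higher, since *Cdkn2c* was at 0.89.

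Replicate numbers are shared by the genotypes, but the labels do not tie a number to a litter, and same-numbered libraries deviated together only weakly (Pearson's r across 14347 genes of 0.222 for replicate 1 and 0.0711 for replicate 3). With the replicate block, *Cdkn1a* (-0.87, adjusted p = 0.0245) and *Cdkn2d* (0.51, 0.0340) passed as well, 1 member was higher and 2 were lower at the study's threshold, 0 RB and E2F genes were lower, and 918 of all genes were higher and 1065 lower. With the block and all 6 columns, *Cdkn1a* (-0.82), *Cdkn1b* (0.36) and *Cdkn2d* (0.59) passed, which made 4 higher members.

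Of the lists, the kinases and cyclins had 7 to 12 genes called higher and 0 to 2 lower without each replicate, and 1 lower with no filter. The RB and E2F genes had 1 to 6 higher and 0 to 2 lower without each replicate, 2 lower with DESeq2, median-of-ratios factors, no filter, at least 10 counts or all 6 columns, and 3 lower with all 6 columns and the block. The degradation genes had 0 to 2 lower without each replicate and 2 lower with all 6 columns, with or without the block. The regulators had 2 to 6 lower without each replicate, 5 with no filter, 4 with all 6 columns and 5 with these and the block. Among the 26 other named genes, *Ccnd1* ranged from -0.58 to 0.55 without each replicate and turned direction without ctrl 3 (0.55) and cko 1 (0.02). *Ccnd2* ranged from -0.72 to 0.066 and *Ccnd3* from -0.20 to 0.031, both turning without ctrl 3, and *Ccne1* from -0.19 (without ctrl 1) to 0.66, with -0.0092 without cko 2. Over all genes, 317 to 1812 were higher and 416 to 2062 lower without each replicate, and 2865 and 2794 with all 6 columns. With 2 ctrl libraries, leaving out 1 assumes that the remaining one varies like the cko libraries.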
